A study of Mus musculus with 20 samples.

Results

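The comparison was between a mouse cell line carrying an inducible Tfap2c transgene and its parental line after 1 day of aggregation, 2 arrays each, 4 of the 20 arrays of the series. The 4 arrays were chosen by their sample labels and not by any measured value, but the comparison was chosen with earlier results of these data known. The Tfap2c line (labelled A, clone #8-2) carried V5-Tfap2c with an IRES-beta geo cassette behind a tetO and mCMV promoter in a piggyBac transposon vector. The parental line lacked that transgene. Both came from male BVSCR26rtTA embryonic stem cells of C57BL/6;129 background and both carried Blimp1-mVenus and stella-ECFP reporters and Rosa26-rtTA, the transactivator that makes the transgene answer to doxycycline. Cells were first turned into epiblast-like cells (EpiLCs) for 36 h. The day 1 groups were then aggregated for 24 h from 2000 cells per well in GK15 medium with 1.5 μg/ml doxycycline, so that the parental aggregates received the drug as well. Other day 1 groups set beside them were a Blimp1 line (Avi-Blimp1), a Prdm14 line (3xFLAG-Prdm14) and a three-factor line with all 3 transgenes, 2 arrays each. Each line was represented by 1 clone, no aggregates without doxycycline were analysed here, and a difference between clones and an effect of the transgene therefore cannot be told apart. The labels name 2 replicates a group without saying whether they were separate cultures, so the p-values measure the spread between these arrays only. Whole aggregates were harvested, so a change in the share of a cell type and a change in RNA per cell cannot be told apart.

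Tfap2c encodes AP-2gamma, a transcription factor that binds DNA as a dimer. In the mouse embryo it acts with Blimp1 (the product of Prdm1) and Prdm14 in specifying primordial germ cells from the epiblast. It is also a regulator of trophoblast and surface ectoderm. EpiLCs stand for the pre-gastrulation epiblast from which germ cells can be induced.

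Values are deposited log2 signals of Affymetrix probe sets. Array medians lay between 4.60 and 4.86 over the 20 arrays. The ratio of the 3' to the 5' GAPDH control probe sets, a sign of RNA integrity, was -0.13 and -0.16 on the log2 scale in the Tfap2c line on day 1, and -0.17 and -0.17 in the parental line. The correlation between the 2 replicates, over all probe sets but controls and Y-linked ones and with no filter, was 0.976 in the Tfap2c line and 0.972 in the parental line. Between an array of the Tfap2c line and an array of the parental line it was 0.973 to 0.975, so that arrays of different lines were as alike as replicates of one line. All 7 genes of the EpiLC marker list (Pou5f1, Fgf5, Pou3f1, Otx2, Dnmt3b, Tdgf1 and Sox2) read between 10.41 and 13.23 in the Tfap2c line and between 10.43 and 13.24 in the parental line on day 1, above 7.22, the median level of tested genes. Some of them, such as Pou5f1 and Sox2, also mark other pluripotent cells.

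The Tfap2c signal itself was not higher in the line labelled with the transgene. The brightest of its 3 probe sets read 5.80 and 6.08 in the Tfap2c line and 6.38 and 6.29 in the parental line on day 1, and the values of the 2 groups did not overlap, with the Tfap2c line below. The same order without overlap was found for 23.1% of all tested genes. The log2 difference was -0.39 ± 0.13 (SE), with a 95% interval of -0.68 to -0.11 and an adjusted p of 0.587 (limma, Benjamini-Hochberg over 14003 genes). In EpiLCs, before doxycycline, the same probe set read 5.28 and 5.08 in the Tfap2c line and 5.69 and 5.68 in the parental line. Both other probe sets were dim and gave day 1 differences of -1.12 and -0.60. The probe sets could read high values: the brightest gave 11.55 and 11.58 in the three-factor line, 10.70 and 10.91 in the Prdm14 line and 9.38 and 9.81 in the Blimp1 line, although the last 2 lines carry no Tfap2c transgene. Whether these probe sets lie in the part of the transcript that the transgene contains is stated neither in the labels nor in the annotation used. They therefore do not check transgene expression, and every difference below is one between the line so labelled and its parental line.

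On day 1 the expression profiles of both lines were close to each other. Of 14003 genes tested, 3 differed by a log2 change of at least 1 with an adjusted p under 0.05, which is 0.0214% of the genes, and all 3 (H13, Gnptab and Zfp936) were lower in the Tfap2c line. Without the limit on size 9 genes passed, 0.0643% of those tested, 8 of them lower and 1 higher. In all, 923 genes (6.59%) had an unadjusted p under 0.05. The count of 3 depended on single arrays: it was 12, 9 of them higher, without parental replicate 2 and 1 without parental replicate 1. It was 0 when the fit used only the 4 arrays compared, and 1 after median centring of the arrays. In the same fit the Blimp1 line differed from the parental line in 358 genes (2.56%), and the corresponding counts were 750 (5.36%) with Prdm14 and 926 (6.61%) with all 3 factors. These comparisons share the parental arrays.

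The size of the differences could also be bounded. For 12188 genes, 87.0% of those tested, the whole 95% interval of the day 1 difference lay within 1 log2 unit of 0, and for 98.5% it lay within 2 log2 units. The median absolute difference was 0.10 with a median SE of 0.13. A difference of 1 log2 unit or more was measured for 125 genes, and 122 of them had their higher group mean below 7.22, the median of that level over all tested genes. In the three-factor line 1046 genes differed from the parental line by that much.

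**Figure D1:**
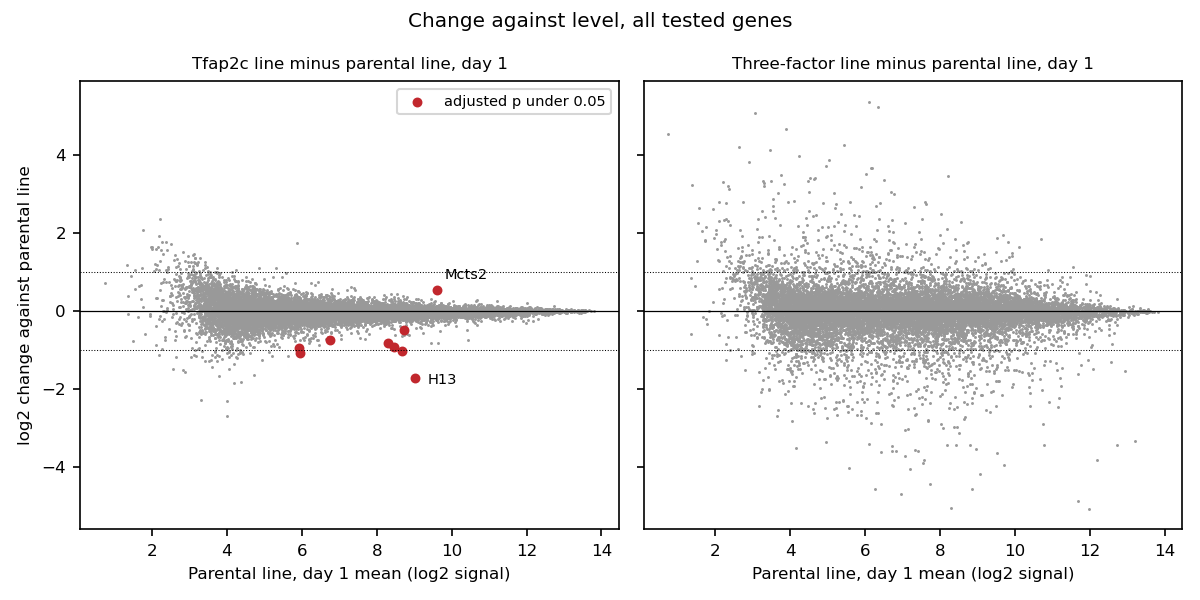
Log2 change against the parental line on day 1 (y axis) by the parental mean log2 signal (x axis) for every tested gene, in the Tfap2c line (left) and the three-factor line (right), with dotted lines at a log2 change of 1 in either direction. In the Tfap2c line bright genes lie close to 0 and the 9 red points are the genes with an adjusted p under 0.05, with H13 the lowest of them at -1.72 and Mcts2 above 0 at 0.55.

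The largest called difference was in H13 (chromosome 2), which encodes signal peptide peptidase, an intramembrane protease that cleaves signal peptides. H13 read 7.26 and 7.35 in the Tfap2c line and 9.16 and 8.89 in the parental line on day 1. The arrays of the Tfap2c line were both below those of the parental line, by far more than the replicates differed. H13 was 3.29-fold lower, a log2 change of -1.72 ± 0.14 (SE), with an adjusted p of 0.000292 (limma). The same probe set also differed before aggregation and before doxycycline: EpiLCs read 6.51 and 6.82 in the Tfap2c line and 8.11 and 8.43 in the parental line, a log2 change of -1.60 with an adjusted p of 0.00062 (limma).

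Mcts2 was the one gene that rose among the 9. It is a retrogene copy of Mcts1 that lies in an intron of H13, and both genes are known as imprinted in the mouse. Mcts2 read 10.14 and 10.16 in the Tfap2c line and 9.56 and 9.64 in the parental line on day 1, and 10.45 and 10.43 in the Tfap2c line against 9.70 and 9.87 in the parental line in EpiLCs. The groups did not overlap at either stage, and the direction was opposite to that of H13. The log2 change was 0.55 ± 0.07 (SE) on day 1 with an adjusted p of 0.0129, and 0.66 in EpiLCs with an adjusted p of 0.00212 (limma). On day 1 Mcts2 kept an adjusted p under 0.05 when parental replicate 2 was left out (0.024) and not when Tfap2c replicate 1 (0.084), Tfap2c replicate 2 (0.0956) or parental replicate 1 (0.162) was left out. None of the other 9 tested genes nearest to H13, 5 on one side and 4 on the other, passed an adjusted p of 0.05 in limma. Over all tested genes 0.0643% passed it. The day 1 differences of those neighbours lay between -0.59 and 0.85.

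The H13 signal was measured by 6 probe sets, and they did not all move. Besides the brightest one, 1438865_at read 3.04 and 3.16 in the Tfap2c line and 4.33 and 4.54 in the parental line on day 1. Probe set 1438456_at read 4.70 and 3.94 in the Tfap2c line and 5.51 and 5.27 in the parental line. The remaining 3 gave day 1 differences of -0.46, -0.07 and 0.21. The mean over all probe sets of H13 differed by -0.74 on day 1 with an adjusted p of 0.408 in limma, so the call rests on the brightest probe set. In EpiLCs the other 5 differed by -0.48, -0.42, 0.29, 0.50 and 0.56, and the mean over all probe sets differed by -0.19 with an adjusted p of 0.926 in limma.

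The other transgenic lines did not share the H13 value. On day 1 H13 read 9.32 and 9.33 with the Blimp1 transgene, 8.73 and 9.00 with Prdm14 and 8.81 and 8.89 with all 3. Against the three-factor line, which carries a Tfap2c transgene too, H13 was lower in the Tfap2c line by a log2 change of -1.54 with an adjusted p of 5.95e-06 (limma). Mcts2 was lower than parental in these lines (8.83 and 8.90 in the three-factor line on day 1), and 2.44-fold higher in the Tfap2c line than in the three-factor line.

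**Figure D2:**
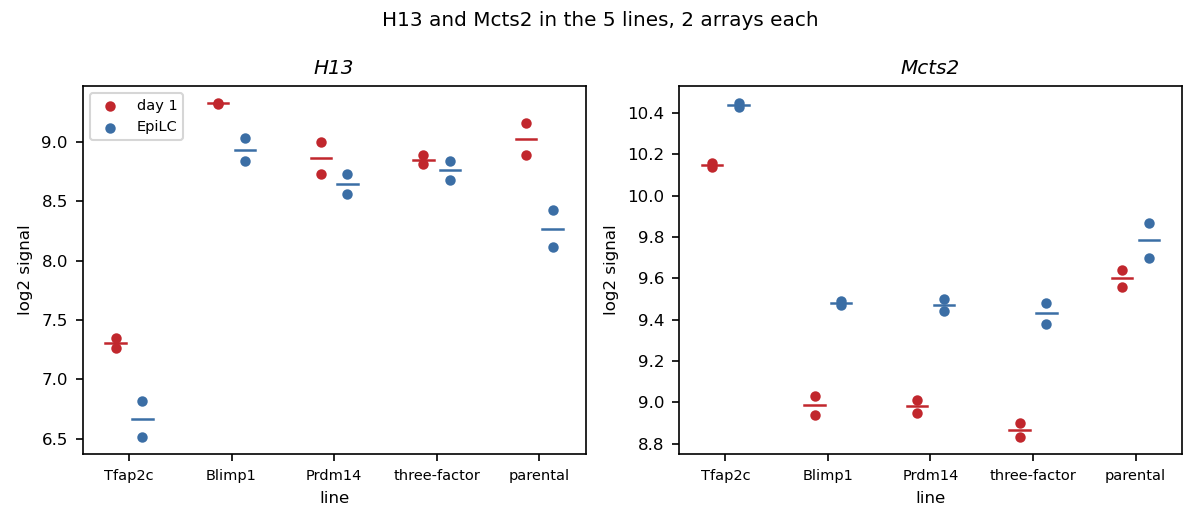
Log2 signal (y axis) of H13 and Mcts2 in the 5 lines (x axis) on day 1 and in EpiLCs, with points for the 2 arrays and bars for their mean. The Tfap2c line has the lowest H13 and the highest Mcts2 of the 5 lines at both stages.

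Gnptab (chromosome 10) encodes the alpha and beta subunits of the enzyme that starts the mannose 6-phosphate tag of lysosomal enzymes. It read 7.62 and 7.68 in the Tfap2c line and 8.71 and 8.63 in the parental line on day 1, a 2.03-fold lower signal with an adjusted p of 0.000292 (limma). In EpiLCs it read 7.89 and 7.68 in the Tfap2c line and 8.85 and 8.81 in the parental line. The log2 change was close to 1 at both stages, -1.02 ± 0.08 (SE) on day 1 and -1.04 ± 0.08 in EpiLCs. Because the change sits at the limit on size, the call ended without Tfap2c replicate 1 (-0.99) and without parental replicate 1 (-0.98) on day 1, while the adjusted p stayed at or below 0.00968 in limma. Only 1 of its 3 probe sets showed the difference. The other 2 read 5.47 and 5.71, and 6.71 and 6.82, in the Tfap2c line, against 5.49 and 5.45, and 6.58 and 6.53, in the parental line, and the mean over the 3 differed by -0.23 on day 1 and by -0.13 in EpiLCs (adjusted p 0.674 on day 1 and 0.858 in EpiLCs, limma).

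Ufsp2 (chromosome 8), a protease that matures the ubiquitin-like protein UFM1 and removes it from its targets, was also lower at both stages. It read 7.51 and 7.48 in the Tfap2c line and 8.30 and 8.32 in the parental line on day 1. Replicates differed by a few hundredths, and the line difference was -0.81 ± 0.07 (SE), 1.76-fold, with an adjusted p of 0.000292 (limma). In EpiLCs the values were 6.57 and 6.60 in the Tfap2c line and 7.86 and 7.72 in the parental line, 2.31-fold lower with an adjusted p of 8.35e-06. Ufsp2 was lower than parental in the other lines on day 1 too, at 7.92 and 7.85 with Blimp1, 7.35 and 7.50 with Prdm14 and 7.81 and 7.84 with all 3 factors.

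In EpiLCs 4 genes (0.0286%) passed both limits, and H13, Gnptab and Ufsp2 were lower. The fourth was the one higher gene, 1110046J04Rik, named here after its values were seen. It read 4.22 and 3.71 in the Tfap2c line and 1.55 and 0.00 in the parental line in EpiLCs, a log2 change of 3.19 with an adjusted p of 0.043 (limma). All these values are at the dim end, and on day 1 it read 2.71 and 2.05 in the Tfap2c line and 2.19 and 1.24 in the parental line, where the groups overlapped. It was not called without the filter on dim probe sets, where 3 genes were called in EpiLCs, all lower. Among the groups given here only the Tfap2c line EpiLCs, where it was called higher, reached the filter level of 3.95. Its call is therefore no independent support for a difference. The count was 9 without Tfap2c EpiLC replicate 2, and 9 without parental EpiLC replicate 1. None of the 10 tested genes nearest to Gnptab or of the 10 nearest to Ufsp2 had an adjusted p under 0.05 on day 1. Only 0.0643% of all tested genes had one, so its absence among so few genes says little. The day 1 differences lay between -0.81 (Sycp3, beside Gnptab) and 0.79 around Gnptab, and between -0.295 and 0.50 around Ufsp2. The promoters of the 4 genes that differed at both stages are shown because AP-2 factors bind GC-rich elements near start sites. The sequences are RefSeq windows on build GRCm38.p6 from 250 bases before to 50 bases after the start of the gene, on the plus strand, with each match to the AP-2 consensus GCCNNNGGC in capitals. The windows are chr2:152669211-152669510 for H13, chr2:152686898-152687197 for Mcts2, chr10:88379018-88379317 for Gnptab and chr8:45975278-45975577 for Ufsp2.
H13: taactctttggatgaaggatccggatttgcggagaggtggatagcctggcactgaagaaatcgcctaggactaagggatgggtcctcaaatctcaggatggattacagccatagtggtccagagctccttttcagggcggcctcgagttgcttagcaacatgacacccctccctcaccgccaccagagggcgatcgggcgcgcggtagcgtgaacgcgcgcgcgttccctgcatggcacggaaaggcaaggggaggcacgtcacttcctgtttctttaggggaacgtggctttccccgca
Mcts2: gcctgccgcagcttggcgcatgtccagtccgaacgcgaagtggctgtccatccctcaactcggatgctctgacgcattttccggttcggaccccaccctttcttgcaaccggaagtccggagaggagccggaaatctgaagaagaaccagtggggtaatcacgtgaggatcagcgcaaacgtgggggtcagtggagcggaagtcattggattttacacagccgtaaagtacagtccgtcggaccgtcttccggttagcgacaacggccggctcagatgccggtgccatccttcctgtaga
Gnptab: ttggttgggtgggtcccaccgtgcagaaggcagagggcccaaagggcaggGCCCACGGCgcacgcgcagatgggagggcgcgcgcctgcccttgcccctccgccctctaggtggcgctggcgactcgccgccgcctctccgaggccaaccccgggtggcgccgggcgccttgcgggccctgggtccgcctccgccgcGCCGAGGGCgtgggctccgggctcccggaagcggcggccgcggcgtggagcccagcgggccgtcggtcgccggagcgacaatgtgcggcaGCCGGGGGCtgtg
Ufsp2: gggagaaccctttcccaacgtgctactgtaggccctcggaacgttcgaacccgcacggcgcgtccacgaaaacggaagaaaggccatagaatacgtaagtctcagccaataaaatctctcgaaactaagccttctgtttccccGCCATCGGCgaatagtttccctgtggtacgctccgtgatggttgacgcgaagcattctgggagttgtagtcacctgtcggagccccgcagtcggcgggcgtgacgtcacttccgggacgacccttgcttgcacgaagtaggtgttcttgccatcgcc

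The consensus reads the same on both strands and was searched as written. It occurred 3 times in the Gnptab window and 1 time in the Ufsp2 window, and these letters were not in the H13 and Mcts2 windows. Of all 32851 RefSeq windows 16.6% held it, and 28.0% of the 11270 tested genes with a window held it in at least one. Among the 9 genes with an adjusted p under 0.05 on day 1 it was found for 3, the third being Zfp936. The Gnptab window held 41 CpG dinucleotides, as many as or more than all but 3.46% of windows.

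Zfp936, Fgf4, Tnnt1 and Gtsf1l had an adjusted p under 0.05 on day 1 (limma) and were not called in EpiLCs. Only Zfp936 also reached the limit on size on day 1, so for the others this is no contrast between the stages. Zfp936, a zinc finger gene of chromosome 7, read 4.79 and 4.94 in the Tfap2c line and 5.98 and 5.90 in the parental line on day 1, against 8.22 and 8.32 in the Tfap2c line and 8.20 and 8.44 in the parental line in EpiLCs. The day 1 log2 change was -1.08 ± 0.15 (SE) with an adjusted p of 0.0286 (limma). This call was lost without any one of the 4 arrays, with adjusted p-values of 0.291 and 0.0964 without Tfap2c replicates 1 and 2, and of 0.242 and 0.0807 without parental replicates 1 and 2. On day 1 Zfp936 was below parental in the Blimp1 line too, at 5.03 and 5.63. It was above parental in the Prdm14 line (6.67 and 6.65) and the three-factor line (6.65 and 6.62).

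Fgf4, the fibroblast growth factor of the early epiblast and the one list member among the 9, read 7.47 and 7.65 in the Tfap2c line and 8.43 and 8.52 in the parental line on day 1, with 9.92 and 10.05 in the Tfap2c line and 9.99 and 10.13 in the parental line in EpiLCs. Its log2 change was -0.92 ± 0.12 (SE) with an adjusted p of 0.0194 (limma), and it was between 0.0708 and 0.21 when any one array was left out. Of its other 3 probe sets, 2 gave -0.72 and -0.79 and one gave 0.04. The mean over the 4 differed by -0.59 with an adjusted p of 0.167 in limma. A lower Fgf4 was not particular to the Tfap2c line: the brightest probe set read 7.07 and 7.11 in the Blimp1 line on day 1. It was above parental in the Prdm14 line (9.48 and 9.51) and the three-factor line (9.04 and 8.71).

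Tnnt1, the slow skeletal muscle troponin T, read 4.83 and 5.14 in the Tfap2c line and 6.01 and 5.85 in the parental line on day 1, a log2 change of -0.94 with an adjusted p of 0.0286 (limma). Gtsf1l, a relative of the germ cell gene Gtsf1, read 5.96 and 6.05 in the Tfap2c line and 6.85 and 6.64 in the parental line, a change of -0.74 with the same adjusted p. For both, the groups did not overlap, as for 23.1% of all tested genes with the Tfap2c line lower. Neither gene reached a log2 change of 1, so neither was called. When single arrays were left out the change of Tnnt1 ran from -1.10 to -0.79 and that of Gtsf1l from -0.85 to -0.64. Tnnt1 did not keep an adjusted p under 0.05 without any one array, and Gtsf1l kept it only without parental replicate 2.

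The last of the 9, Cdk5rap1 (chromosome 2), an enzyme that modifies mitochondrial tRNAs, read 8.21 and 8.28 in the Tfap2c line and 8.79 and 8.67 in the parental line on day 1. The change was -0.48 ± 0.07 (SE) with an adjusted p of 0.0286 (limma), and -0.42 with an adjusted p of 0.12 in EpiLCs. Cdk5rap1 did not reach a log2 change of 1, so it was not called. When single arrays were left out its day 1 change ran from -0.55 to -0.43. It kept an adjusted p under 0.05 only without parental replicate 2. Of the 9 genes 4 lie on chromosome 2, which holds 8.10% of the tested genes, and 3 on chromosome 7, which holds 7.88%. Those on chromosome 2 include H13 and Mcts2, which lie at the same locus and are not separate observations. An excess on a chromosome was not tested.

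**Figure D3:**
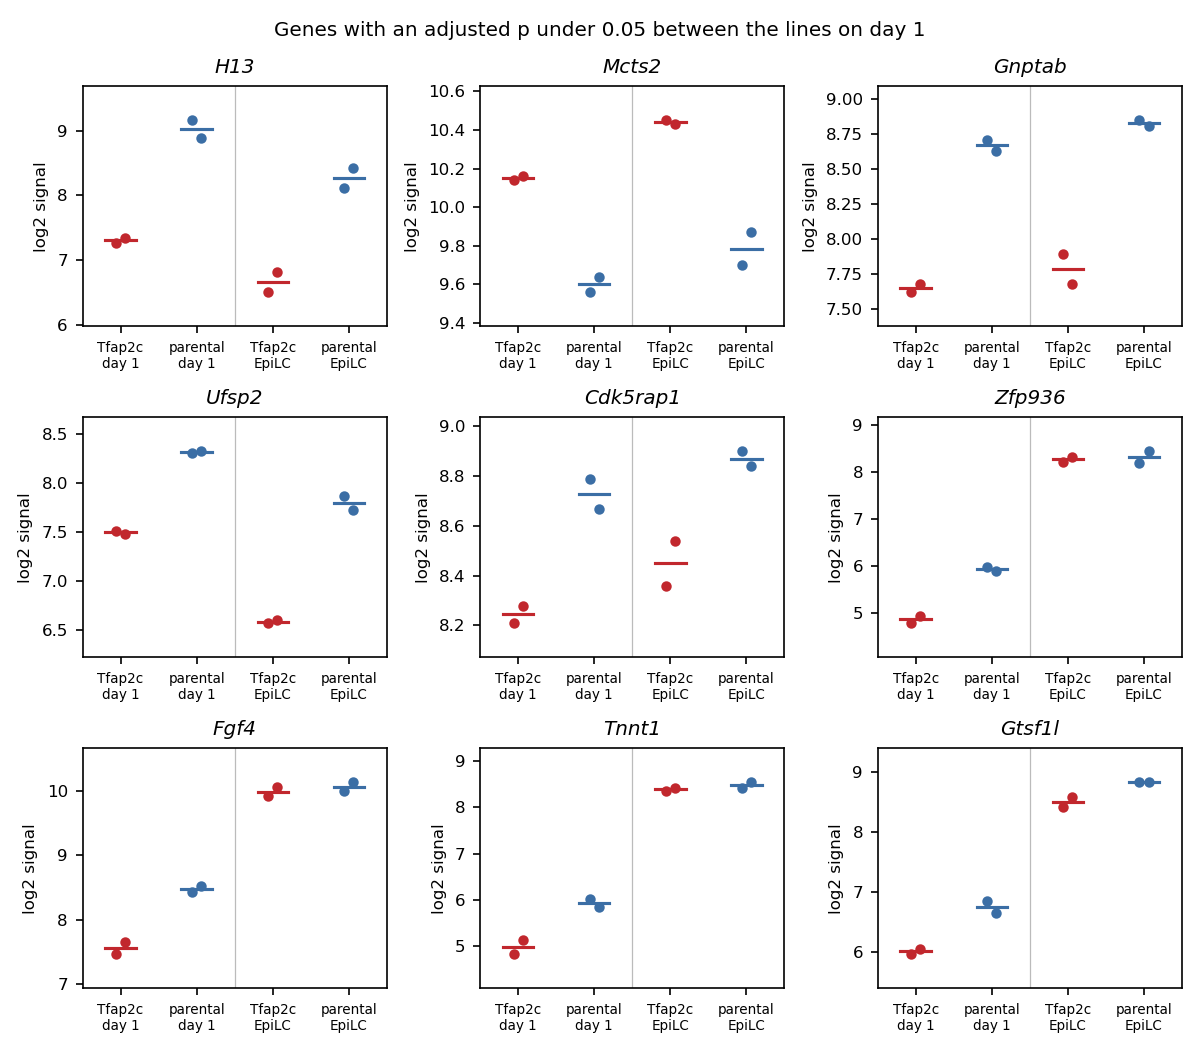
Log2 signal (y axis, scaled per gene) of the 9 genes with an adjusted p under 0.05 on day 1, for the Tfap2c line (red) and the parental line (blue) on day 1 and in EpiLCs (x axis), with points for arrays and bars for means. H13, Mcts2, Gnptab and Ufsp2 are apart at both stages, while for Zfp936, Fgf4 and Tnnt1 the EpiLC points of the lines lie together.

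Whether the line difference itself changed between EpiLCs and day 1 was tested directly. No gene of 14003 was called in limma (0.0%), none had an adjusted p under 0.05, and 650 had an unadjusted p under 0.05 (4.64%). Leaving out Tfap2c replicate 2 of day 1 gave 1 call, leaving out parental replicate 1 of the EpiLCs gave 1, and leaving out parental replicate 2 of day 1 gave 2. For Zfp936 the difference between the stages was -1.02 ± 0.22 (SE), for Tnnt1 -0.86 ± 0.19 and for Fgf4 -0.84 ± 0.17, each with an adjusted p of 0.629 in limma. A change that appeared only on day 1 was thus not established for any of them. For H13 it was -0.12 (95% interval -0.56 to 0.33) and for Mcts2 -0.10 (-0.32 to 0.10).

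The genes that changed with aggregation overlapped between the lines. In the Tfap2c line 852 genes (6.08%) were called between day 1 and its own EpiLCs, and in the parental line 919 (6.56%). The 2 contrasts share no array. They had 652 genes in common, all in the same direction, which is 76.5% of the genes of the Tfap2c line and 70.9% of those of the parental line. Nanog, a homeobox factor of pluripotent and germ cells, rose by 3.12 log2 units in the Tfap2c line (adjusted p 1.94e-08, limma) and by 2.56 in the parental line (adjusted p 4.96e-08). Nodal, a TGF-beta family ligand that maintains the epiblast, rose by 1.54 in the Tfap2c line and by 1.38 in the parental line. Zfp936, Tnnt1 and Fgf4 were among the genes that decreased with aggregation in both lines. Zfp936 fell by 3.41 in the Tfap2c line and fell by 2.38 in the parental line. Tnnt1 fell by 3.41 in the Tfap2c line and fell by 2.55 in the parental line, and Fgf4 fell by 2.42 in the Tfap2c line and fell by 1.58 in the parental line.

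Among the regulators of germ cell fate, none passed the test between the Tfap2c line and the parental line on day 1. Prdm1 read 4.84 and 5.18 in the Tfap2c line and 4.90 and 5.01 in the parental line, and the groups overlapped. Its log2 difference was 0.06 with a 95% interval of -0.23 to 0.34 and an adjusted p of 0.984 (limma). Dppa3, also called stella, a gene of early germ cells and of naive pluripotent cells, read 5.61 and 6.44 in the Tfap2c line and 6.23 and 5.97 in the parental line, a difference of -0.08 with an interval of -0.68 to 0.53. Its replicates in the Tfap2c line lay further apart than the group means. Prdm14 was dim, at 4.06 and 3.55 in the Tfap2c line and 3.59 and 3.67 in the parental line, and its interval of -2.34 to 2.69 allows a change of several-fold in either direction.

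Dppa3 and Prdm1 were far from parental in the three-factor line. Dppa3 read 11.41 and 11.51 there, so that the Tfap2c line was lower by a log2 change of -5.44 with an adjusted p of 3.41e-08 (limma). Prdm1 read 8.63 and 8.71 in the three-factor line, and the Tfap2c line was lower by a log2 change of -3.66 with an adjusted p of 2.29e-09. Whether the Prdm1 probe set reads the Blimp1 transgene is likewise not given. The Prdm14 line, which carries no Prdm1 transgene, read 7.23 and 7.39 for Prdm1. Prdm14 itself was dim in the three-factor line too, at 3.40 and 4.67.

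**Figure D4:**
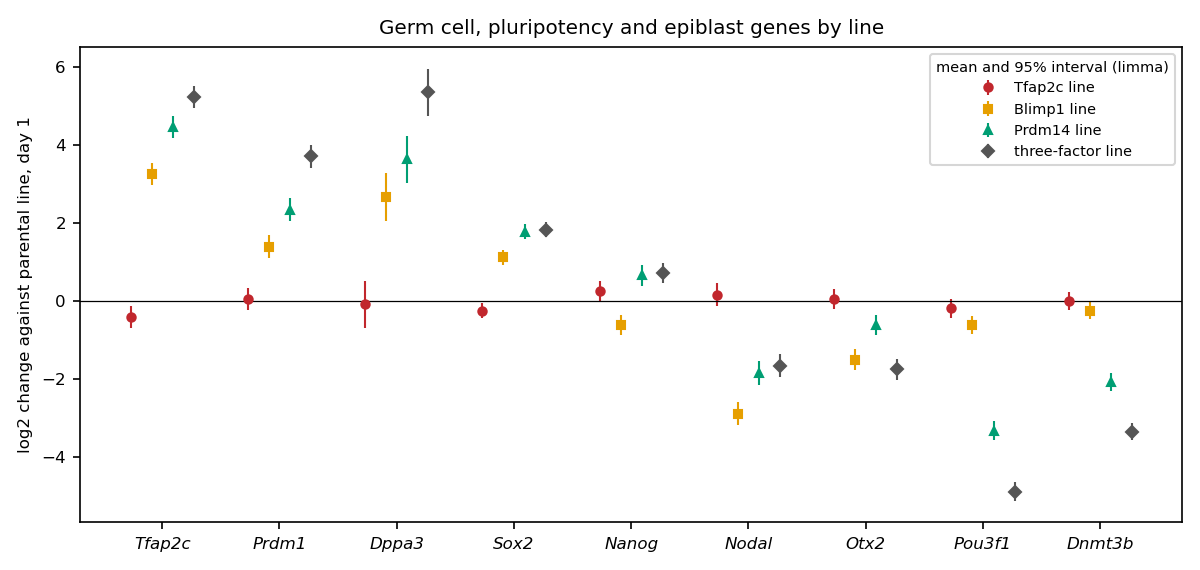
Log2 change against the parental line on day 1 (y axis) for 9 germ cell, pluripotency and epiblast genes (x axis), as the mean and 95% interval from limma in the Tfap2c, Blimp1, Prdm14 and three-factor lines. The Tfap2c line lies within 0.5 log2 units of 0 for all 9 genes, while the three-factor line reaches 5.36 for Dppa3 and -4.88 for Pou3f1.

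Across 31 lists of genes for germ cell, pluripotency, lineage, signalling and housekeeping programmes, 438 distinct genes were tested. None was called between the Tfap2c line and the parental line on day 1, in EpiLCs or in the difference between the stages. Over all tested genes the called shares were 0.0214% on day 1, 0.0286% in EpiLCs and 0.0% for the difference. With shares that low, the absence of calls in these lists, here and below, is no result particular to their genes. Fgf4 alone passed an adjusted p of 0.05 on day 1 (limma). For 369 of the 438 genes the 95% interval lay within 1 log2 unit of 0, beside 87.0% of all tested genes. List medians ranged from -0.43 to 0.12, beside a median of -0.02 over all genes tested. The early germ cell list, 22 genes tested, had a median of -0.08, with 5 members lower and 1 higher at an unadjusted p under 0.05. Over all genes 4.31% were lower and 2.28% higher at that p. The trophectoderm list, of interest because Tfap2c acts in trophoblast, had a median of -0.04 over 21 genes, with 2 lower and 1 higher at an unadjusted p. The surface ectoderm and epithelium list had a median of 0.00 over 28 genes.

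The AP-2 family list, with 7 members and partners tested, showed no call either. Tfap2a, a family member that acts in ectoderm, read 5.07 and 5.11 in the Tfap2c line and 5.20 and 5.37 in the parental line. Kctd15, which encodes a repressor of AP-2 activity, read 7.14 and 6.96 in the Tfap2c line and 6.72 and 6.56 in the parental line, a difference of 0.41 with an adjusted p of 0.71 (limma). Lists for other cell types gave no call: the fibroblast and feeder list had a median of 0.12 over 7 of 12 genes tested and the endoderm list a median of 0.12 over 12 of 17.

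Among the lists with more than 1 gene tested, the lowest median was that of later germ cell and meiosis genes, a set often held silent by promoter methylation in somatic cells. This list was singled out by its median in these same day 1 values, and its members were measured on the same arrays. The counts in this paragraph are therefore descriptions and not independent tests. None of the 18 tested members of the list passed an adjusted p of 0.05. Its median was -0.43, with 17 members below 0 and 1 above, where 57.4% of all tested genes were below 0. At an unadjusted p under 0.05, 9 of the 18 were lower and none higher, beside the 4.31% of all genes. Groups did not overlap, with the Tfap2c line lower, for 11 of the 18, beside 23.1% of all genes. In EpiLCs 17 of the 18 were also below 0, beside 53.2% of all tested genes, with a median of -0.18. At an unadjusted p under 0.05, 2 of the 18 were lower there and none higher.

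Single members of that list were Morc1, a silencer of transposable elements in male germ cells, at 3.07 and 3.68 in the Tfap2c line and 4.30 and 4.53 in the parental line on day 1. Dazl, a germ cell RNA-binding protein, read 5.04 and 5.19 in the Tfap2c line and 5.62 and 5.63 in the parental line. Sycp3, a protein of the synaptonemal complex and the neighbour of Gnptab on chromosome 10, read 8.42 and 8.86 in the Tfap2c line and 9.52 and 9.38 in the parental line. Each was lower in both arrays of the Tfap2c line, with an adjusted p of 0.411 for Morc1, 0.419 for Dazl and 0.155 for Sycp3 (limma). The naive pluripotency list had a median of -0.20 over 24 genes, with 7 lower and 2 higher at an unadjusted p under 0.05. Over all genes 4.31% were lower and 2.28% higher at that p. Dppa2, among the lower ones, read 8.61 and 9.03 in the Tfap2c line and 9.59 and 9.69 in the parental line (adjusted p 0.112, limma).

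No gene of the primed epiblast list was called between the lines on day 1 in limma. An unadjusted p under 0.05 was found for 1 of the 24, beside 6.59% of all tested genes. Pou3f1, a POU factor of the primed epiblast, read 11.51 and 11.49 in the Tfap2c line and 11.59 and 11.77 in the parental line on day 1. Dnmt3b, a de novo DNA methyltransferase, read 13.20 and 13.23 in the Tfap2c line and 13.18 and 13.24 in the parental line, a difference of 0.00 with an interval of -0.22 to 0.23. Otx2, a homeobox factor of the epiblast and anterior neural tissue, had an interval of -0.21 to 0.31, and Pim2, a kinase gene, one of -0.24 to 0.18. Of the 24 tested genes of the primed epiblast list 22 had an interval within 1 log2 unit, beside 87.0% of all tested genes.

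**Figure D5:**
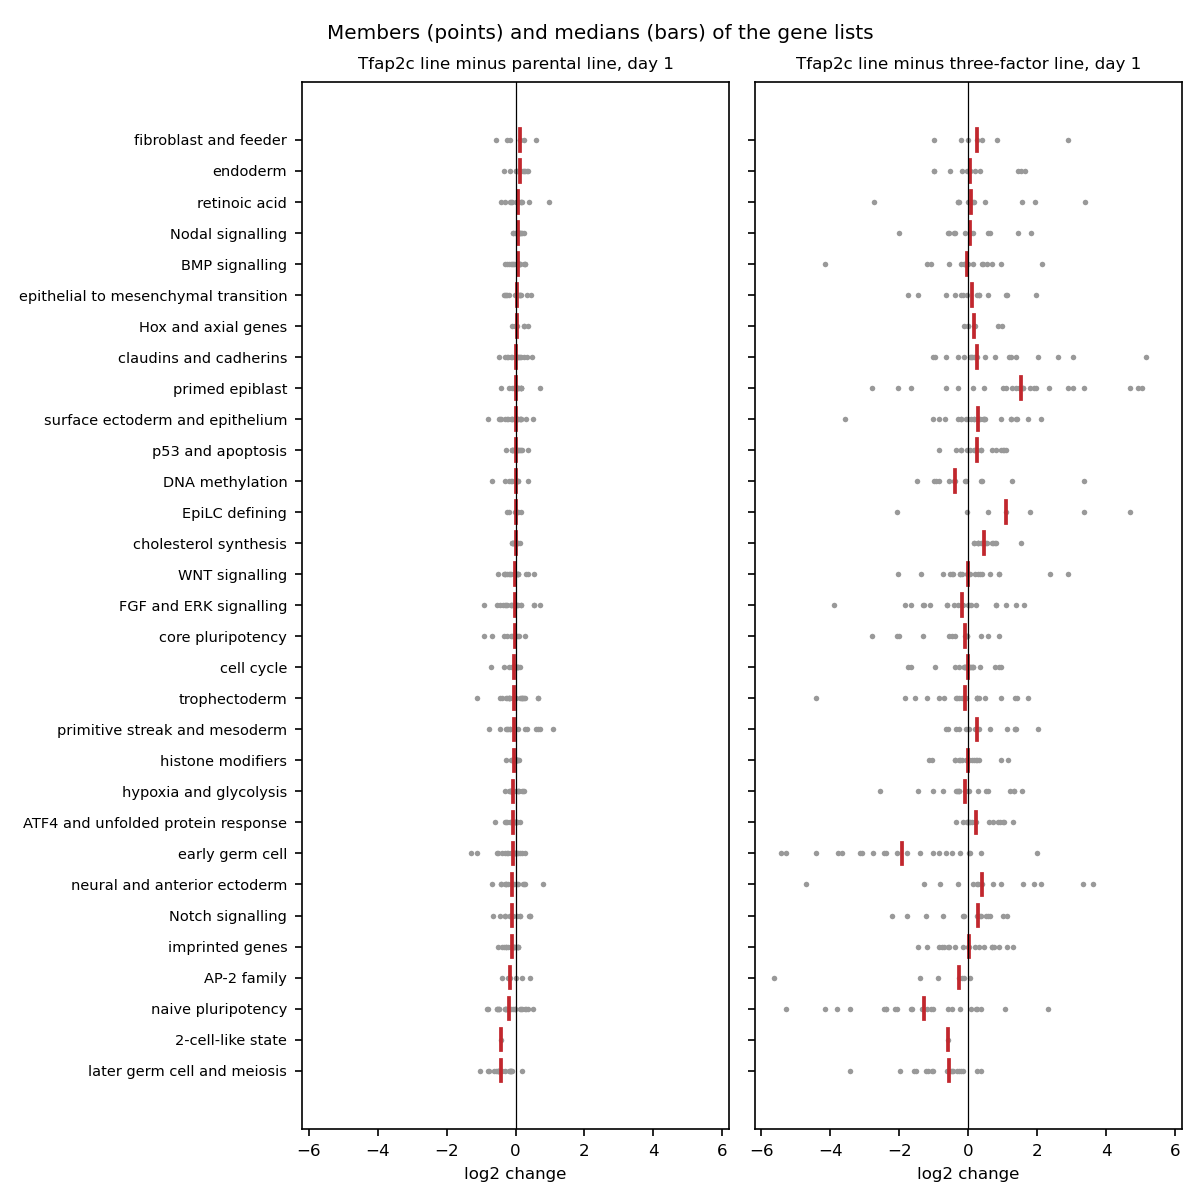
Log2 change on day 1 (x axis) of the tested members (points) and the median (red bar) of 31 gene lists (y axis), for the Tfap2c line minus the parental line (left) and minus the three-factor line (right). On the left the medians stay between -0.43 and 0.12, and on the right the early germ cell list has a median of -1.92 and the primed epiblast list one of 1.54.

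Set directly against the three-factor line on day 1, the Tfap2c line differed in 983 of 14003 genes (7.02%), 527 of them higher and 456 lower. Of the 22 early germ cell genes 14 were lower in the Tfap2c line and 1 was higher, with background shares of 3.26% lower and 3.76% higher over all genes. The gene lists were chosen with earlier results of these data known, and a gene could pass the filter through a line in which it was high. The list counts here and below are therefore descriptions and not independent tests. Tcl1, a coactivator of AKT kinases expressed in naive and germ cells, read 2.57 and 3.16 in the Tfap2c line and 8.13 and 8.16 in the three-factor line. The exception was Pdpn, which encodes the membrane glycoprotein podoplanin, at 10.31 and 10.32 in the Tfap2c line and 8.33 and 8.29 in the three-factor line.

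Of the 24 primed epiblast genes 16 were higher in the Tfap2c line than in the three-factor line and 3 were lower. Pou3f1 read 6.96 and 6.65 in the three-factor line, so that the Tfap2c line was 25.9-fold higher with an adjusted p of 1.12e-10 (limma). Pim2 was 32.8-fold higher in the Tfap2c line, and Nt5e, which encodes the surface enzyme CD73, was 30.5-fold higher. Of the 24 naive pluripotency genes 14 were lower in the Tfap2c line and 2 higher. Nanog was one of those that missed the limit on size, at 10.88 and 11.02 in the Tfap2c line and 11.40 and 11.42 in the three-factor line. In the trophectoderm list 3 of 21 genes were higher and 3 lower.

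The single-factor lines were set against the Tfap2c line in the same way. Against the Blimp1 line on day 1 the Tfap2c line differed in 378 genes (2.7%), 150 higher (1.07%) and 228 lower (1.63%). Of the 22 early germ cell genes 8 were lower and none higher in the Tfap2c line, and of the 24 primed epiblast genes 10 were higher and 1 was lower. Against the Prdm14 line it differed in 816 genes (5.83%), 446 higher (3.19%) and 370 lower (2.64%). Here 11 early germ cell genes were lower in the Tfap2c line and 1 was higher, and 11 primed epiblast genes were higher and 2 lower. Ifitm1, an interferon-induced membrane protein gene also known as fragilis2, had the lowest early germ cell value against the Blimp1 line, a log2 change of -3.71.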

How the data were processed

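Total RNA of 20 samples was labelled as biotinylated cRNA and hybridised to Affymetrix arrays, per the labels' protocols. The authors deposited log2 values, 1 for each probe set of each array. Neither the labels nor the file state their software, summarisation or normalization, and base 2 was read from the range of the values. Depth has no counterpart on arrays, where the number of replicates (2 a group) limits the precision.

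Of 45101 probe sets, 64 were controls, 34945 listed 1 gene, 932 several and 9160 none, and only those with 1 gene were named. Y-linked genes were left out. A probe set was kept where its highest group mean reached 3.95, the 40th percentile of all values, and a gene was represented by its probe set with the highest mean. This left 14003 genes. limma 3.58.1 in R 4.3.3 fitted 10 group means over all 20 arrays (10 residual degrees of freedom), with eBayes and Benjamini-Hochberg adjustment over all genes. A call needed a log2 change of 1 or more in size together with an adjusted p under 0.05. Differences are the Tfap2c line minus the other line, with SEs and 95% intervals from limma. The model was tested on simulated data.

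Named genes were the called genes with the largest change (up to 15 in each direction on day 1 and 8 in each direction in EpiLCs and in the difference between stages), called list members on day 1, and Tfap2c, Prdm1, Prdm14 and Dppa3. Clones, predicted genes and Rik names were not named by the rule. All other genes were named after their values were seen. The comparison and the gene lists were chosen with earlier results of these data known. Alternatives were a fit on the compared arrays only, median centring, quantile normalization, no filter, the mean over probe sets, treat against 0.5, the replicate number as a block, leaving out each array, and no limit on size, the last added after the data were seen. Deviations of replicates with the same number were only weakly correlated in the pairs of groups examined.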

Additional observations from a re-analysis of the deposited data

Results flagged for a closer look

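Probe sets that list no gene or several genes were outside the comparisons above. In a limma fit over 30331 probe sets that included them, 3 were called between the Tfap2c line and the parental line on day 1. Probe set 1451716_at, with no gene listed, was higher by a log2 change of 2.61 (adjusted p 0.00305), at 6.05 and 5.86 in the Tfap2c line and 3.68 and 3.01 in the parental line. In EpiLCs it read 3.56 and 3.10 in the Tfap2c line and 3.46 and 3.86 in the parental line, and the difference between the stages was 2.94 with an adjusted p of 0.145. The other 3 transgenic lines read between 2.59 and 3.29 for it on day 1. Probe set 1435789_x_at, with no gene listed, was lower by -1.25 (adjusted p 0.00305), at 8.76 and 9.00 in the Tfap2c line and 10.28 and 9.98 in the parental line. It was lower in EpiLCs too (-1.10), and its day 1 values in the other 3 transgenic lines lay between 8.98 and 9.47. Probe set 1449347_a_at, which lists 3 genes, was lower by -2.02 (adjusted p 0.0306), at 2.90 and 2.83 in the Tfap2c line and 4.75 and 5.02 in the parental line, with -2.28 in EpiLCs and day 1 values between 2.14 and 3.51 in the other 3 lines.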

How the results depend on the processing

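The day 1 count of 3 calls was 0 when only the arrays compared were fitted (2 residual degrees of freedom), 1 after median centring, 1 after quantile normalization, 1 with the mean over probe sets, 1 with treat and 9 with no limit on size, and it ran from 1 to 12 when single arrays were left out. The EpiLC count of 4 was 0 with only the arrays compared, 2 with the mean over probe sets and 2 with treat, and 3 to 9 when single arrays were left out. The count of 0 for the difference between the stages was 1 with only the arrays compared and 0 to 2 when single arrays were left out. The 983 calls against the three-factor line were 4045 with no limit on size and 925 to 1045 when single arrays were left out. Signs turned when single arrays were left out for Dppa3 (-0.49 to 0.34, with 0.05 without parental replicate 1), Prdm14 (-0.08 to 0.43) and Prdm1 (-0.12 to 0.23), none of which was called in any setting run. On day 1 H13 kept its call in 10 of 12 alternatives, Gnptab in 5 and Zfp936 in 3, judged on size and adjusted p where the setting used both. The genes that were not called were judged on an adjusted p under 0.05 alone. Ufsp2 kept it in 10 of 12, Mcts2 in 7, Cdk5rap1 in 4, Fgf4 and Gtsf1l in 3 and Tnnt1 in 2. These counts cannot be ranked against those of the called genes. Gnptab missed only the limit on size after median centring (-0.99, adjusted p 0.003, limma). The cause of these losses was not tested. With no filter on dim probe sets there were again 3 calls on day 1, but 1 was higher and 2 were lower. In EpiLCs that setting gave 3 calls, all lower. With the replicate number as a block the counts were 3 on day 1, 4 in EpiLCs, 0 for the difference between the stages and 985 against the three-factor line. With the block Tnnt1 and Gtsf1l each had a day 1 adjusted p of 0.0581 (limma). Whether the replicate numbers pair the samples is not stated in the labels. Deviations of arrays with the same number correlated at 0.072 between the lines on day 1 and at 0.014 in EpiLCs, and such low values do not settle it. Signals near the dim end and a group size of 2 limit what can be detected.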

Other observations

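Over the 19 autosomes and the X chromosome, the median day 1 difference of tested genes between the Tfap2c line and the parental line lay between -0.045 (chromosome 8) and -0.005 (chromosome 9), beside -0.025 over all genes.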
